A study of Mus musculus with 8 samples.

Results

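The genes described here are 35 genes of fatty acid oxidation and ketogenesis, chosen by symbol from 33467 genes in the deposited expression table. Of these, 19 act in mitochondrial β-oxidation, 14 in or at the peroxisome, and 2 in ketone body metabolism. All 35 were found and passed the filter on low counts, among 19535 genes tested. The libraries came from whole liver of wild-type C57BL/6J mice. The control group was fed a standard diet for 4 weeks (n = 4), and the other group was fed 1% 3,5-diethoxycarbonyl-1,4-dihydrocollidine (DDC), a porphyrinogenic compound used to model cholestatic injury and biliary fibrosis, for the same time (n = 4). The age and sex of the mice are not given in the labels, and all libraries carry the same batch label.

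Hepatocytes break fatty acids down at the mitochondrion and the peroxisome. In the mitochondrion, the acid is activated to its CoA ester, carried across the inner membrane as a carnitine ester, and shortened in repeated rounds of dehydrogenation, hydration, a second dehydrogenation and thiolysis. The peroxisome shortens very long, branched and dicarboxylic chains and the side chains of bile acid intermediates. The acetyl-CoA released in fasting is turned into ketone bodies for export, and the nuclear receptor PPARα is the best known activator of these genes in liver.

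Library totals ran from 61179103 to 81664058 counts. The scaling factors of the trimmed mean of M-values (TMM) were 0.792 to 0.815 for controls and 1.21 to 1.27 for DDC libraries, so the choice of scaling moves every fold change. Levels below are in CPM, the count of a gene relative to the TMM-scaled library size, and ± is the SD over the 4 livers of a group. Fold changes are DDC over control, and adjusted p-values come from edgeR's quasi-likelihood test with Benjamini-Hochberg adjustment over all genes tested, with a threshold of 0.05. Alb, which encodes albumin and marks hepatocytes, went from 116259 ± 12873 CPM to 49998 ± 6354 CPM in DDC livers. The summed level of 12 macrophage markers was 290 to 368 CPM in control livers and 1971 to 2099 CPM in DDC livers. For 8 cholangiocyte markers it was 67.4 to 145 CPM and 721 to 1110 CPM, and for 9 stellate cell and fibroblast markers 354 to 420 CPM and 1077 to 1250 CPM. Called higher were 12 of the 12 macrophage, 7 of the 8 cholangiocyte and 5 of the 9 stellate cell and fibroblast markers, and 0 were called lower. Of all genes tested, 30.2% were called higher. Without DDC 1, 6 of these 9 were called higher and 1 lower. No marker of these 3 lists was at 0. In whole tissue, fewer hepatocytes and less RNA of a gene per hepatocyte cannot be told apart.

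Transcripts of heart muscle were present in all 8 libraries and differed between livers of the same diet. The summed level of 16 heart muscle genes, chosen after seeing the data, was 1259, 1690, 1519 and 2607 CPM in controls 1 to 4. In DDC libraries 1 to 4 it was 1737, 326, 330 and 290 CPM. DDC 1 lay within the control range for 16 of the 16 genes, and DDC 2 to 4 lay below every control for 16 of the 16. The adjusted p-values of the 16 ran from 0.0541 to 0.153 with all libraries and from 7.9e-06 to 0.000749 without DDC 1. Thus 0 of the 16 were called with all libraries and 16 without DDC 1, where 27.3% of all genes tested were called lower. As the genes were chosen after seeing the data, these counts and p-values only describe the pattern and are no test of it. Myh6, the cardiac myosin heavy chain, stood at 427, 567, 508 and 883 CPM in controls and at 604, 117, 106 and 90.7 CPM in DDC livers. Heart muscle uses fatty acids heavily and expresses many of the genes described here.

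Transcripts of fatty acid oxidation were lower in DDC livers at nearly every step. Of the 35 genes, 34 fell, 1 rose, and 0 missed the threshold. Of all genes tested, 26.6% were called lower and 30.2% higher. The 34 genes that fell had every DDC library below every control, as did 25.7% of all genes tested. A fall of at least 2-fold was measured for 31 of the 35, against 8.85% of all genes tested. The median log2 fold change of the 35 genes was -1.45, a 2.73-fold fall, and that of all genes tested was 0.073. The summed level of the 35 genes went from 16290 ± 1346 CPM to 5297 ± 333 CPM. As a share of all counts, with no scaling beyond the total, they took 1.31% ± 0.0959 in controls and 0.656% ± 0.0292 in DDC livers.

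**Figure D1:**
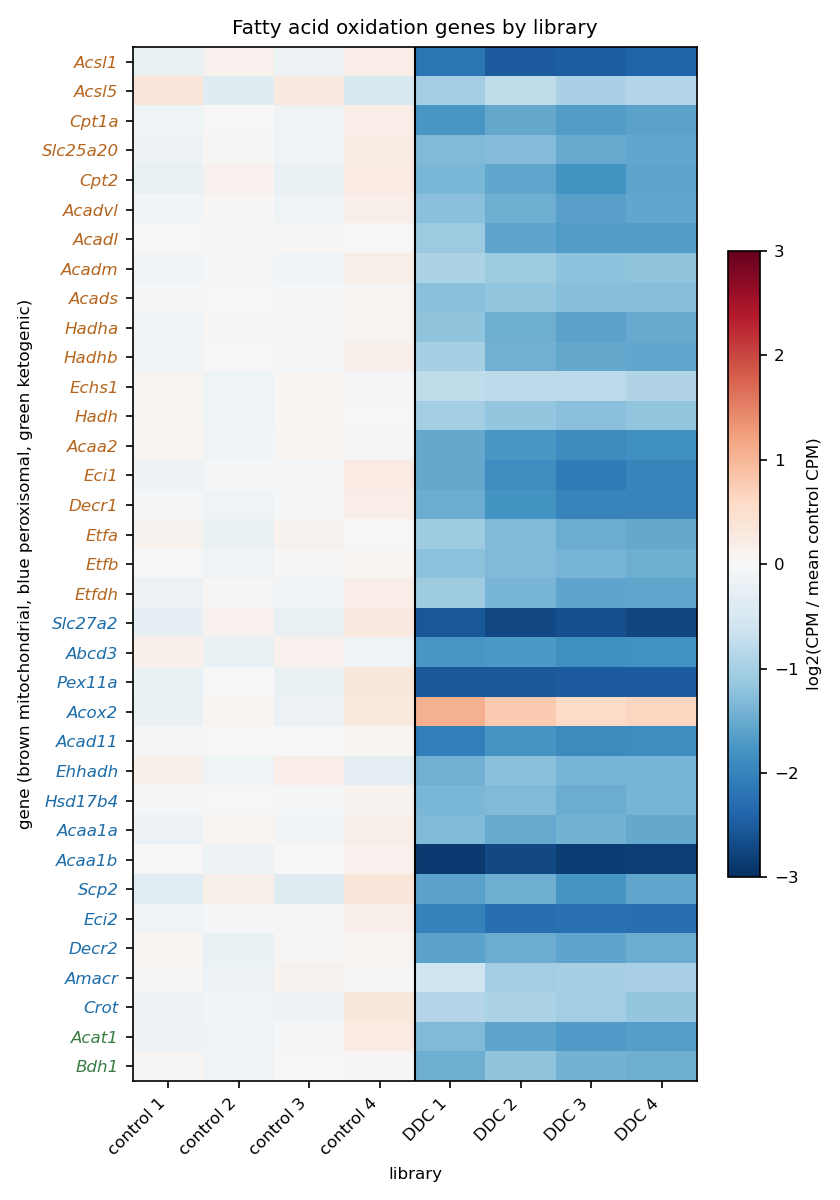
Level of each of the 35 genes (rows) in each library (columns) as the log2 ratio of its CPM to the mean control CPM, with blue for lower and red for higher. In the DDC columns 34 genes are blue in all 4 libraries and Acox2 is red in all 4.

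The size of the fall depended on the scaling. When libraries were scaled by their totals alone, 33 of the 35 genes were called lower (8.96% of all genes tested) and 1 higher (58.9%). Their median log2 fold change was -0.82, while the median of all genes tested moved to 0.70. With libraries scaled to 20 proteins that hepatocytes secrete, 30 were called lower (5.88% of all genes tested), with a median of -0.61 against 0.92 for all genes. Relative to the median of all genes tested, the median of the 35 genes was -1.52 with TMM scaling and with library totals alone. It was -1.53 with the secreted protein scaling. A change of scaling shifts all genes by nearly the same amount, so these near equal values follow from arithmetic and are no test. The genes that lost the call were those with the smallest falls: Acsl5 with both other scalings, and Amacr, Crot and Echs1 with the secreted protein scaling, where Echs1 turned to 0.039. The secreted proteins were themselves lower in DDC livers, with 18 of 20 called lower and a median log2 fold change of -0.95.

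**Figure D2:**
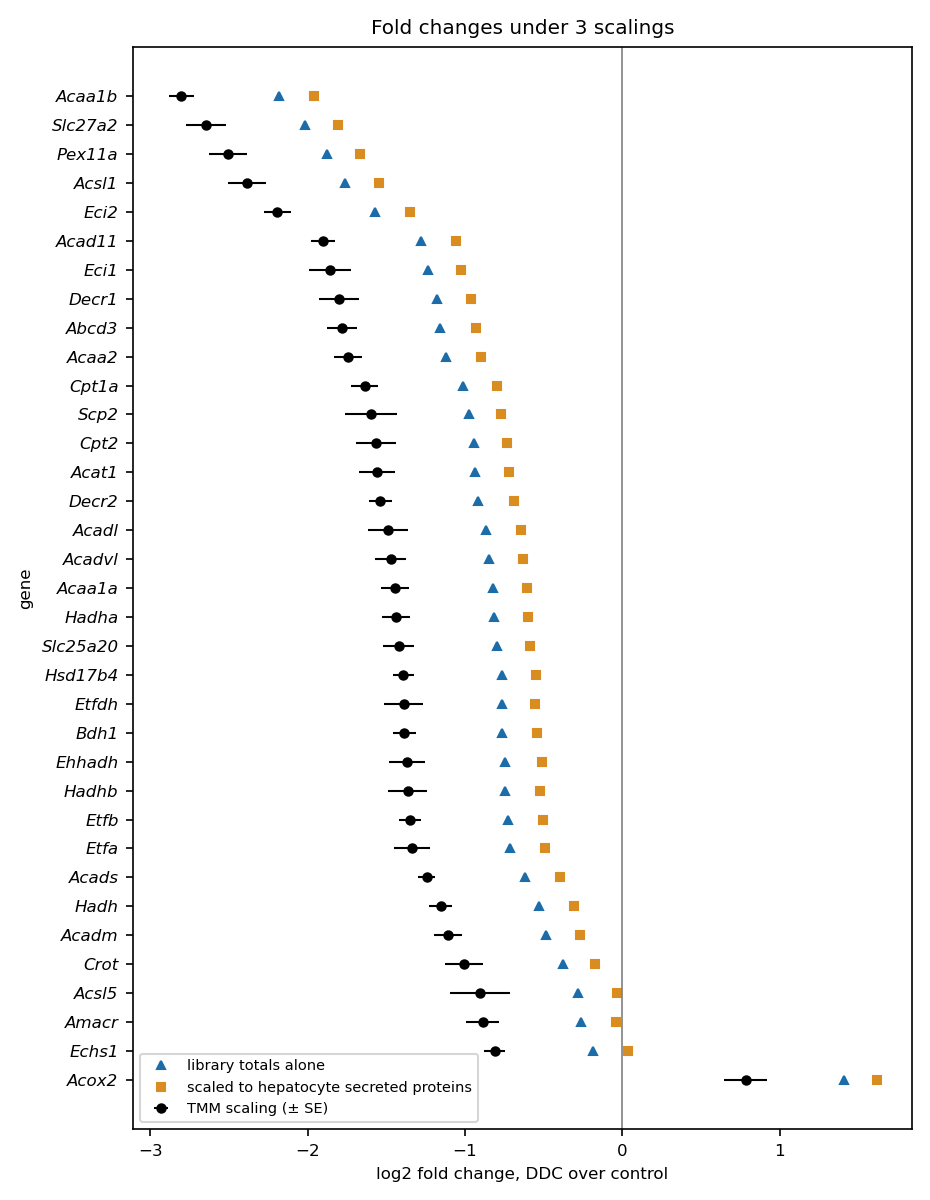
Log2 fold change (horizontal axis, DDC over control) of each gene under TMM scaling with its standard error (black circles), library totals alone (blue triangles) and scaling to hepatocyte secreted proteins (orange squares). The points shift to the right together, and with the last scaling Acsl5, Amacr and Echs1 lie next to 0.

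The 5 genes that bring fatty acids into the mitochondrion all fell, with a median log2 fold change of -1.57. Acsl1, the main long-chain acyl-CoA synthetase of liver, stood at 797, 1027, 840 and 1082 CPM in controls and at 206, 167, 168 and 176 CPM in DDC livers. All 4 DDC livers were far below the lowest control. The fall was 5.22-fold (log2 fold change -2.38 ± 0.12 SE, adjusted p = 3.00e-07). Acsl5, another long-chain acyl-CoA synthetase, stood at 588, 353, 550 and 326 CPM in controls and at 225, 270, 232 and 245 CPM in DDC livers. Controls 1 and 3 lay well above controls 2 and 4, and the lower pair of controls came close to the highest DDC liver. Its log2 fold change was -0.90 ± 0.19 SE (adjusted p = 0.00318). Scaled by library totals it was -0.28 (adjusted p = 0.218). In the deposited coordinates Zdhhc6 overlaps Acsl5 on the opposite strand at 18.5% of its control level, and reads of the pair cannot be told apart if strand was not used in counting.

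Cpt1a, the carnitine palmitoyltransferase of the outer membrane and the step where malonyl-CoA restrains oxidation, stood at 578, 639, 586 and 723 CPM in controls and at 189, 219, 198 and 206 CPM in DDC livers. The groups were wide apart and the DDC livers lay close together. The fall was 3.11-fold (log2 fold change -1.64 ± 0.088 SE, adjusted p = 4.19e-07). Slc25a20, the carnitine-acylcarnitine carrier of the inner membrane, fell 2.68-fold from 131 ± 16.4 to 48.8 ± 4.33 CPM. Cpt2, which returns the acyl group to CoA in the matrix, fell 2.96-fold from 136 ± 22 to 46.0 ± 5.42 CPM. The 3 steps of the carnitine shuttle thus fell by similar folds, and within libraries the ratio of Cpt1a to Cpt2 counts was 4.67 ± 0.332 in controls and 4.47 ± 0.630 in DDC livers (exact permutation p = 0.714).

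The sequence upstream of Acsl1 is shown because this gene fell most among the mitochondrial ones. It covers the 120 bases before the annotated 5′ end, chr8:46470917-46471036 on the plus strand of GRCm38.p6, from RefSeq's promoter table, and capitals mark the GC box letters GGGCGG.
Acsl1 upstream: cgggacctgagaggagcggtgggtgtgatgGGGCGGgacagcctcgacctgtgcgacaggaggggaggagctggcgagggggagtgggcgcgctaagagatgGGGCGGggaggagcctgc

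The 9 genes of the β-oxidation spiral all fell, with a median log2 fold change of -1.37. Among the acyl-CoA dehydrogenases, which start each round, Acadvl (very long chains) fell 2.77-fold from 459 ± 42.1 to 166 ± 19.3 CPM. Acadl (long chains) fell 2.81-fold from 278 ± 8.13 to 99.0 ± 20.6 CPM. Acadm (medium chains), fell 2.16-fold, from 365, 373, 363 and 433 CPM in controls to 200, 182, 164 and 165 CPM. Acads (short chains) fell 2.37-fold from 167 ± 7.26 to 70.8 ± 1.92 CPM. The medium-chain gene thus had the smallest fall of the 4. The ratio of Acadvl to Acadm counts was 1.19, 1.26, 1.16 and 1.19 in controls and 0.963, 0.909, 0.908 and 0.939 in DDC livers, with no overlap. That ratio gave the smallest p that 4 against 4 allows (exact permutation p = 0.0286), which became 0.0857 after adjustment over 15 pairs.

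Hadha and Hadhb encode the α and β subunits of the trifunctional protein, which carries out the later steps on long chains. Hadha stood at 421, 452, 431 and 469 CPM in controls and at 191, 161, 146 and 157 CPM in DDC livers. Hadhb stood at 187, 196, 193 and 220 CPM in controls and at 99.4, 73.3, 68.6 and 67.8 CPM in DDC livers. For both, DDC 1 was the highest of the DDC livers and still below every control. Their falls were 2.71-fold (adjusted p = 9.67e-07) and 2.58-fold (adjusted p = 1.24e-05). The ratio of Hadha to Hadhb counts was 2.23 ± 0.0721 in controls and 2.14 ± 0.164 in DDC livers, a log2 difference of -0.063 (exact permutation p = 0.371). Of the 150-base stretches of the longest coding GENCODE transcript of Hadhb, 43.7% also occur in Gm13910. Part of the reads of Hadhb may thus not be placed uniquely. Gm13910 is not among the 33467 genes from which the list was chosen, so no level of it is given.

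The genes lie head to head on chromosome 5, Hadha on the minus strand (30118304 to 30155162) and Hadhb on the plus strand (30155248 to 30184593). The 85 bases between their annotated 5′ ends, chr5:30155163-30155247, are shown on the plus strand because they separate the 5′ ends of both subunit genes. The role of this interval in the falls was not tested. GC boxes are in capitals.
Hadha-Hadhb interval: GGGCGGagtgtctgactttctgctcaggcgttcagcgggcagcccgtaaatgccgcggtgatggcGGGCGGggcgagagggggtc

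The other 3 genes of the spiral had both its smallest and its largest fall. Echs1, the short-chain enoyl-CoA hydratase, fell 1.75-fold from 245 ± 16.5 to 140 ± 5.95 CPM, the smallest fall among the 34 genes. With the secreted protein scaling its log2 fold change was 0.039 (adjusted p = 0.634), so its direction depends on the scaling. Paox overlaps it on the opposite strand at 20.9% of its control level. Hadh, the 3-hydroxyacyl-CoA dehydrogenase for shorter chains, fell 2.23-fold from 304 ± 18.6 to 137 ± 10.4 CPM. Acaa2, the mitochondrial thiolase that ends each round, stood at 1099, 1000, 1092 and 1038 CPM in controls and at 366, 315, 287 and 296 CPM in DDC livers. It was the most abundant spiral gene in both groups, and it fell 3.35-fold (log2 fold change -1.74 ± 0.088 SE, adjusted p = 2.87e-07).

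Both auxiliary genes for unsaturated chains fell more than the spiral median. Eci1, the mitochondrial enoyl-CoA isomerase that moves a misplaced double bond, fell 3.63-fold from 110 ± 13.4 to 30.2 ± 5.43 CPM. Decr1, the mitochondrial 2,4-dienoyl-CoA reductase, fell 3.49-fold from 176 ± 17.3 to 50.5 ± 8.91 CPM. The 3 genes that pass electrons from the dehydrogenases to the respiratory chain fell by nearly the same fold. Etfa and Etfb, the subunits of electron transfer flavoprotein, fell 2.53-fold and 2.55-fold, and Etfdh, which hands the electrons to ubiquinone, fell 2.62-fold. The ratio of Etfa to Etfb counts was 1.34 ± 0.0873 in controls and 1.34 ± 0.106 in DDC livers (exact permutation p = 0.857). Of the 150-base stretches of Etfb, 62.9% also occur in Gm45233, which is likewise not among the 33467 genes.

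The 3 largest falls among the 35 genes were those of the peroxisomal Acaa1b, Slc27a2 and Pex11a. The 3 genes of peroxisomal entry and division had a median log2 fold change of -2.51, against -1.57 for mitochondrial entry. Slc27a2, a very long-chain acyl-CoA synthetase and fatty acid transporter, stood at 1387, 1779, 1399 and 1968 CPM in controls and at 282, 250, 265 and 247 CPM in DDC livers. Controls 2 and 4 were the higher pair, and the DDC livers sat together far below. The fall was 6.26-fold (log2 fold change -2.64 ± 0.13 SE, adjusted p = 2.23e-07). Pex11a, which promotes peroxisome division and is induced by PPARα agonists, stood at 132, 152, 134 and 193 CPM in controls. In DDC livers it stood at 26.6, 26.8, 27.1 and 27.2 CPM, the tightest of the 35 genes with a coefficient of variation of 0.977%. It fell 5.68-fold (adjusted p = 2.20e-07).

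Abcd3, the ATP-binding cassette transporter of the peroxisomal membrane that imports branched and dicarboxylic acyl groups, fell 3.44-fold from 638 ± 79.8 to 185 ± 7.84 CPM. It is the only one of 30 genes with a RefSeq promoter window (250 bases before to 50 after the start) that held the HNF4 site letters CAAAGTCCA. These letters occur in 0.475% of all such windows and in 0.555% of all genes with a window. The match starts 13 bases after the RefSeq start, at chr3:121815271-121815299 with its flanks, and is shown on the minus strand with the match in capitals.
Abcd3 site: cccgggaagcCAAAGTCCAcggtgggctc

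The peroxisomal oxidation genes split, with 6 of 7 lower and 1 higher. Acaa1b, a peroxisomal thiolase of rodents, had the largest fall of all 35 genes. It stood at 929, 834, 947 and 1021 CPM in controls and at 128, 143, 131 and 132 CPM in DDC livers. The groups were separated by a wide gap and each was tight. The fall was 6.98-fold (log2 fold change -2.80 ± 0.080 SE, adjusted p = 3.00e-08). Its paralog Acaa1a, also on chromosome 9, fell 2.73-fold from 285 ± 31.9 to 105 ± 6.48 CPM. The ratio of Acaa1b to Acaa1a counts was 3.69, 2.81, 3.54 and 3.15 in controls and 1.13, 1.43, 1.23 and 1.33 in DDC livers. The ratios did not overlap (exact permutation p = 0.0286, adjusted over 15 pairs 0.0857). The paralogs share 13.3% of the 150-base stretches of Acaa1b, so some reads could have been counted for either one, and Myd88 overlaps Acaa1a on the opposite strand at 10.2% of its control level and 24.7% of its DDC level.

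The 120 bases before the annotated 5′ end of Acaa1b, chr9:119157094-119157213 on the minus strand, are shown as those of the gene with the largest fall. They hold no GC box, and capitals mark a CCAAT box read on the other strand.
Acaa1b upstream: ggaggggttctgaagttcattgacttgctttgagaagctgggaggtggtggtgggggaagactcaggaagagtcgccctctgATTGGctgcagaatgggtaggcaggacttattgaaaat

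Acox2, the acyl-CoA oxidase for branched chains and bile acid side chains, was the 1 gene that rose. It stood at 98.5, 121, 102 and 140 CPM in controls and at 242, 199, 175 and 179 CPM in DDC livers. Every DDC liver was above every control, and DDC 1 was the highest. The rise was 1.72-fold (log2 fold change 0.78 ± 0.14 SE, adjusted p = 0.000957), and a test against a fold of 1.5 did not call it (adjusted p = 0.0864). Scaled by library totals its log2 fold change was 1.41, and with the secreted protein scaling it was 1.62. Amacr, the racemase that prepares branched acids and bile acid precursors for this oxidase, stood at 113, 98.8, 118 and 113 CPM in controls and at 73.2, 54.1, 55.8 and 56.2 CPM in DDC livers. It fell 1.85-fold (adjusted p = 6.74e-05), and with the secreted protein scaling its log2 fold change was -0.039 (adjusted p = 0.762). The ratio of Acox2 to Amacr counts was 1.05 ± 0.214 in controls and 3.33 ± 0.247 in DDC livers, a 3.21-fold difference with no overlap (exact permutation p = 0.0286, adjusted over 15 pairs 0.0857).

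The bifunctional enzymes that follow the oxidase fell by nearly the same fold. Ehhadh, the L-bifunctional enzyme, fell 2.58-fold from 336 ± 53.6 to 130 ± 8.04 CPM, and Hsd17b4, the D-bifunctional enzyme that also serves bile acid side chains, fell 2.62-fold from 429 ± 25.6 to 163 ± 7.76 CPM. Their count ratio was 0.790 ± 0.168 in controls and 0.796 ± 0.0395 in DDC livers (exact permutation p = 0.886). Scp2, whose longer product is the thiolase for branched chains, stood at 2332, 3236, 2248 and 3738 CPM in controls and at 943, 1046, 852 and 979 CPM in DDC livers. The control libraries spread widely, and the fall was 3.02-fold (adjusted p = 2.87e-05). Of its 150-base stretches, 22.8% also occur in the pseudogene Scp2-ps2, which had mean levels of 150 and 55.7 CPM. Acad11, an acyl-CoA dehydrogenase of long chains grouped here with the peroxisomal genes, fell 3.73-fold from 399 ± 13.4 to 107 ± 9.80 CPM.

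The 4 auxiliary peroxisomal genes all fell, over a wide span. Eci2, the peroxisomal enoyl-CoA isomerase, fell 4.57-fold from 369 ± 30.5 to 80.7 ± 6.98 CPM, and Decr2, the peroxisomal dienoyl-CoA reductase, fell 2.91-fold from 192 ± 16.2 to 65.9 ± 2.49 CPM. Crot, the carnitine octanoyltransferase that exports shortened chains, fell 2.01-fold from 289 ± 52.0 to 144 ± 12.2 CPM, and with the secreted protein scaling was not called (log2 fold change -0.17, adjusted p = 0.319). Amacr completes the group. The ratio of Eci1 to Eci2 counts was 0.296 ± 0.0113 in controls and 0.373 ± 0.0383 in DDC livers with no overlap (exact permutation p = 0.0286, adjusted over 15 pairs 0.0857).

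**Figure D3:**
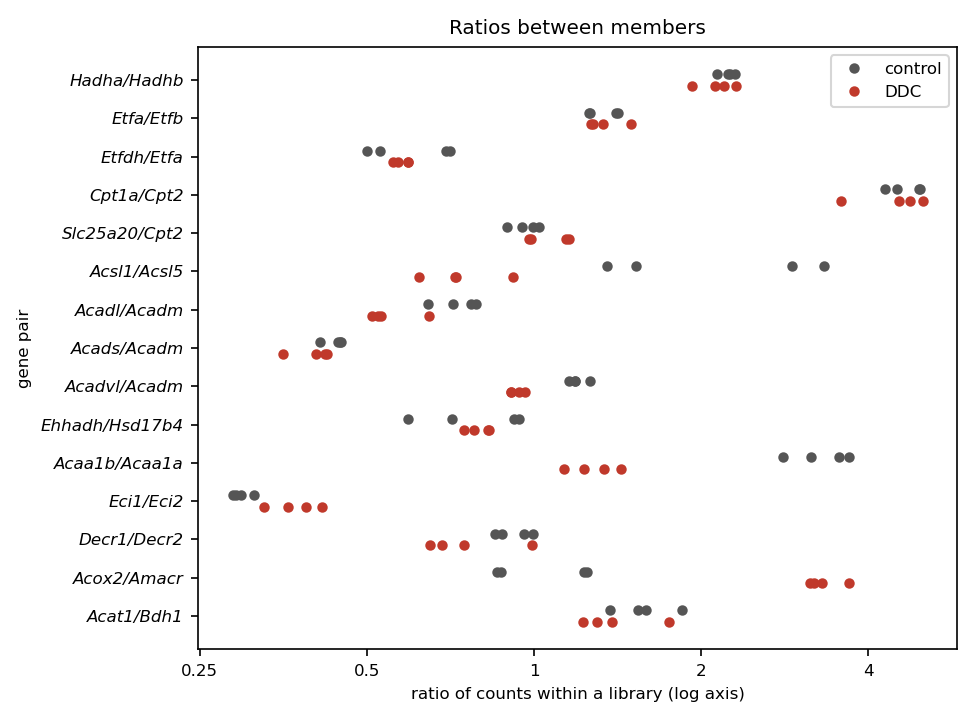
Ratio of the counts of 2 genes within a library (log axis) for 15 pairs, with controls in grey and DDC livers in red, 1 point per library. The groups do not overlap for Acsl1/Acsl5, Acadvl/Acadm, Acaa1b/Acaa1a, Eci1/Eci2 and Acox2/Amacr, and the subunit pairs Hadha/Hadhb and Etfa/Etfb overlap.

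A ratio within a library is free of the scaling. Of the 15 pairs tested, 5 reached the smallest exact p of 0.0286 and 0 passed after adjustment. With 4 against 4 libraries these 5 all received 0.0857, whatever the size of their difference. The adjusted test thus cannot decide whether these ratios differ, and their values are given as description. The ratio of Acsl1 to Acsl5 counts, at 1.36, 2.91, 1.53 and 3.32 in controls and 0.916, 0.620, 0.724 and 0.719 in DDC livers, differed 2.87-fold. The controls formed 2 pairs in that ratio. Such a split ran through many of the genes: controls 2 and 4 both lay above or both below controls 1 and 3 for 28 of the 35, against 47.8% of all genes tested. They were above for 19 genes, among them Acsl1, Cpt1a, Slc27a2 and Scp2, and below for 9, among them Acsl5, Acaa2, Abcd3 and Ehhadh. What sets these controls apart was not tested.

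Both ketone body genes among the 35 fell. Acat1, the mitochondrial acetoacetyl-CoA thiolase, stood at 286, 299, 313 and 380 CPM in controls and at 128, 107, 97.8 and 101 CPM in DDC livers, a 2.95-fold fall (adjusted p = 3.02e-06). Bdh1, which reduces acetoacetate to 3-hydroxybutyrate, stood at 208, 188, 204 and 206 CPM in controls and at 73.2, 86.9, 75.3 and 73.3 CPM in DDC livers, a 2.61-fold fall (adjusted p = 3.57e-07). Neither gene had overlapping groups.

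On the scale of FPKM, which is scaled by gene length and library total and so allows levels of different genes to be compared, Scp2 was the most abundant of the 35 in both groups, with 16.9% of their summed FPKM in controls and 17.4% in DDC livers. Acaa2 came next, with 14.2% and 13.2%. Acaa1b went from 9.69% to 4.32% and Slc27a2 from 8.86% to 4.42%. Acox2 moved from rank 31, at 24.2 ± 3.86 FPKM, to rank 8, at 64.0 ± 8.85 FPKM. Pex11a moved from rank 27 to rank 35, the least abundant of the genes in DDC livers.

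DDC 1 differed from the other DDC livers in heart muscle transcripts, and its levels of the 35 genes are set beside theirs here. The comparison rests on this 1 library, and the part of heart muscle in the values was not tested. DDC 1, whose heart muscle level was that of the controls, was below every control for 34 of the 34 genes that fell, as it was for 34.9% of all genes tested. Its level was 13.8% to 66.1% of the control mean, with a median of 39.2%, and the mean of DDC 2 to 4 was 14.5% to 56.3%, with a median of 34.9%. DDC 1 was the highest DDC library for 21 of the 34, against 38.0% of all genes called lower. Its median level was 113% of the mean of DDC 2 to 4 over the 34 genes, and 102% over all genes called lower. The largest excess was in Acadl, at 130, 92.9, 87.1 and 86.5 CPM in DDC 1 to 4, and the smallest ratio was in Acad11, where DDC 1 stood at 84.8% of the others. Without DDC 1, again 34 of the 35 genes were called lower (27.3% of all genes tested) and 1 higher (30.7%), with a median log2 fold change of -1.54. Of the 35, Acadl moved most, from a log2 fold change of -1.49 to -1.67. With the mean heart muscle level as a covariate, a fit chosen after seeing the data, 34 were lower (20.4% of all genes tested) and 1 higher (20.1%), with a median of -1.27.

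**Figure D4:**
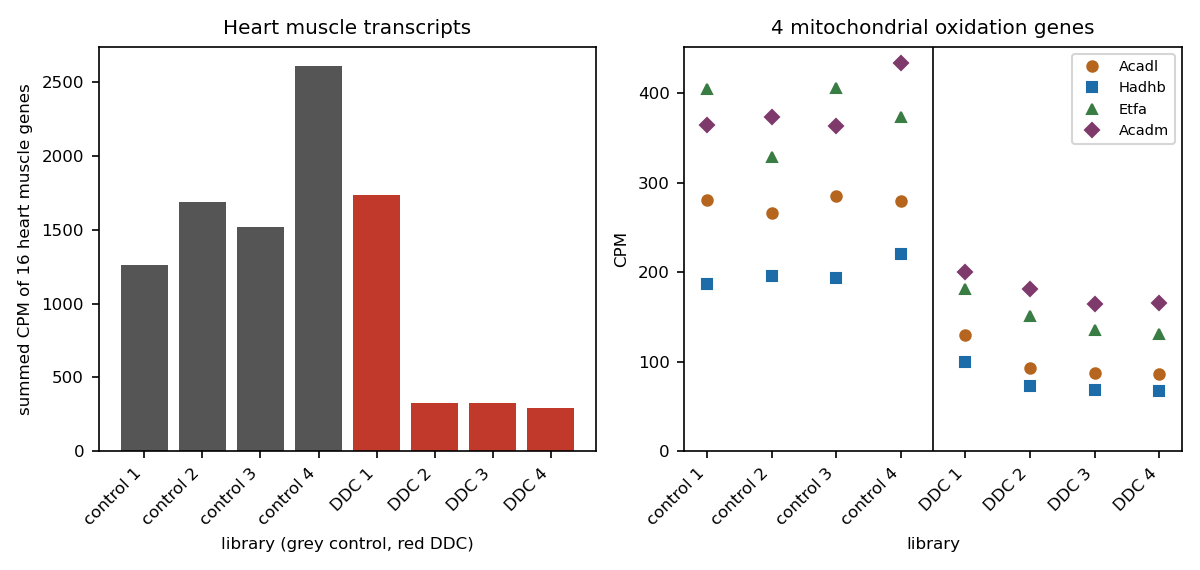
Left, summed CPM of 16 heart muscle genes in each library (bars, grey control, red DDC), with DDC 1 at 1737 and DDC 2 to 4 between 290 and 330. Right, CPM of Acadl, Hadhb, Etfa and Acadm in each library, 4 of the 21 genes in which DDC 1 is the highest DDC library. The 21 are among the 34 genes that fell. In the 4 shown DDC 1 lies below every control. In Acsl5, Cpt1a, Pex11a, Acad11, Ehhadh, Acaa1b, Decr2 and Bdh1, not shown, DDC 1 is the lowest DDC library.

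Other genes of fatty acid oxidation, from a list of 26 of which 25 were tested, fell in 14 cases and rose in 4, with a median log2 fold change of -0.73. Scaled by library totals, 11 fell and 8 rose, with a median of -0.10. With the secreted protein scaling, 9 fell and 11 rose, with a median of 0.098. Of all genes tested, 26.6% were called lower and 30.2% higher with TMM scaling. The shares were 8.96% and 58.9% with library totals, and 5.88% and 66.6% with the secreted protein scaling. These shares apply to the lists below too. Phyh, which starts α-oxidation of phytanic acid, fell 4.50-fold from 1975 ± 261 to 439 ± 22.5 CPM. Ech1, a dienoyl-CoA isomerase for unsaturated chains, fell 3.81-fold from 336 ± 37.5 to 88.3 ± 13.9 CPM. Acacb, which makes the malonyl-CoA that restrains Cpt1a, stood at 224, 90.1, 223 and 77.2 CPM in controls and at 25.5, 17.0, 14.3 and 17.7 CPM in DDC livers, an 8.26-fold fall (adjusted p = 0.00059). The 4 that rose were Cpt1c, a carnitine palmitoyltransferase family member best known from neurons, from 1.07 ± 0.346 to 4.19 ± 0.353 CPM, and Abcd2, Acsl4 and Acox3, named after their values were seen. Cpt1b, the muscle form of Cpt1a, stood at 14.5, 22.3, 23.6 and 34.3 CPM in controls and at 22.5, 11.3, 11.3 and 12.2 CPM in DDC livers, with DDC 1 inside the control range as for the heart muscle genes, and was not called (adjusted p = 0.0733). It was lower without DDC 1 (adjusted p = 0.00842).

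Of 5 other ketone body genes, 2 fell and 1 rose, with a median log2 fold change of -0.099. Scaled by library totals, 1 fell and 3 rose, and with the secreted protein scaling 1 fell and 4 rose, with a median of 0.75. Bdh2, a cytosolic dehydrogenase with a proposed role in ketone use, fell 9.19-fold from 18.1 ± 3.96 to 1.96 ± 0.264 CPM. Slc16a7, a monocarboxylate transporter, had a log2 fold change of -0.44 (adjusted p = 0.02) that turned to 0.18 with library totals alone and to 0.41 with the secreted protein scaling. The gene that rose was Hmgcll1, named after its values were seen, at 0.0872 ± 0.0665 and 0.526 ± 0.111 CPM. Oxct1, which other tissues use to burn ketone bodies, was not called (adjusted p = 0.418).

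Regulators of fatty acid oxidation, a list of transcription factors, cofactors, deacylases and the hormone FGF21 with its coreceptor, fell in 15 of 20 cases and rose in 2, with a median log2 fold change of -0.86. Scaled by library totals, 9 fell and 4 rose, with a median of -0.24. With the secreted protein scaling 7 fell and 6 rose, with a median of -0.024. Ppara, which encodes PPARα, stood at 109, 124, 121 and 125 CPM in controls and at 21.8, 26.3, 21.3 and 21.3 CPM in DDC livers, a 5.29-fold fall (adjusted p = 5.76e-08). Hnf4a, a master factor of hepatocyte identity, fell 2.36-fold from 881 ± 44.3 to 374 ± 11.4 CPM. Lpin1, a phosphatidate phosphatase and coactivator of PPARα, stood at 864, 975, 804 and 787 CPM in controls and at 165, 79.4, 64.0 and 81.3 CPM in DDC livers, an 8.81-fold fall. Ppargc1a, the coactivator of mitochondrial genes, stood at 44.4, 47.5, 45.2 and 46.9 CPM in controls and at 28.0, 6.5, 6.77 and 6.22 CPM in DDC livers. DDC 1 stood apart here as in the heart muscle genes, and the log2 fold change was -1.96 (adjusted p = 0.0163) with it and -2.85 (adjusted p = 2.06e-08) without it. With the secreted protein scaling it was -1.12 and not called (adjusted p = 0.0853), and with the heart muscle covariate -0.90. Its relative Ppargc1b was at 8.32, 10.6, 7.04 and 9.05 CPM in controls and 0.994, 1.85, 2.12 and 2.20 CPM in DDC livers. This was a 4.88-fold fall (adjusted p = 5.00e-05) in which DDC 1 was the lowest library. Pparg, a receptor of adipocytes and macrophages, rose 1.94-fold from 9.90 ± 2.17 to 19.2 ± 1.26 CPM, and the other gene that rose was Ppard.

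PPARα targets outside the oxidation steps had the deepest median of the lists, a log2 fold change of -2.07, with 12 of 15 lower and 2 higher. Scaled by library totals, 11 fell and 2 rose, with a median of -1.45. With the secreted protein scaling 11 fell and 3 rose, with a median of -1.25. Acot1, a cytosolic acyl-CoA thioesterase, stood at 80.4, 125, 90.8 and 147 CPM in controls and at 8.10, 3.79, 4.16 and 3.78 CPM in DDC livers, a 22.4-fold fall. Fabp1, the liver fatty acid binding protein, stood at 1629, 1451, 1562 and 2187 CPM in controls and at 136, 70.2, 50.1 and 49.5 CPM in DDC livers, a 22.3-fold fall. DDC 1 was the highest of the DDC livers for both. Cyp4a14 and Cyp4a10, fatty acid ω-hydroxylases, fell 10.1-fold and 9.68-fold, and as close paralogs they may share reads. Cyp4a10 was at 182, 384, 247 and 439 CPM in controls and at 68.4, 21.2, 25.3 and 14.6 CPM in DDC livers, with DDC 1 far above the others. Its log2 fold change was -3.27 with DDC 1, -3.97 without it and -2.03 with the heart muscle covariate. The genes that rose were Ucp2, a mitochondrial carrier abundant in macrophages, 3.00-fold from 44.3 ± 8.06 to 133 ± 11 CPM, and Cd36, a fatty acid and lipoprotein receptor that macrophages also carry. The macrophage markers rose 12 of 12, and the part of macrophages in these values was not tested.

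**Figure D5:**
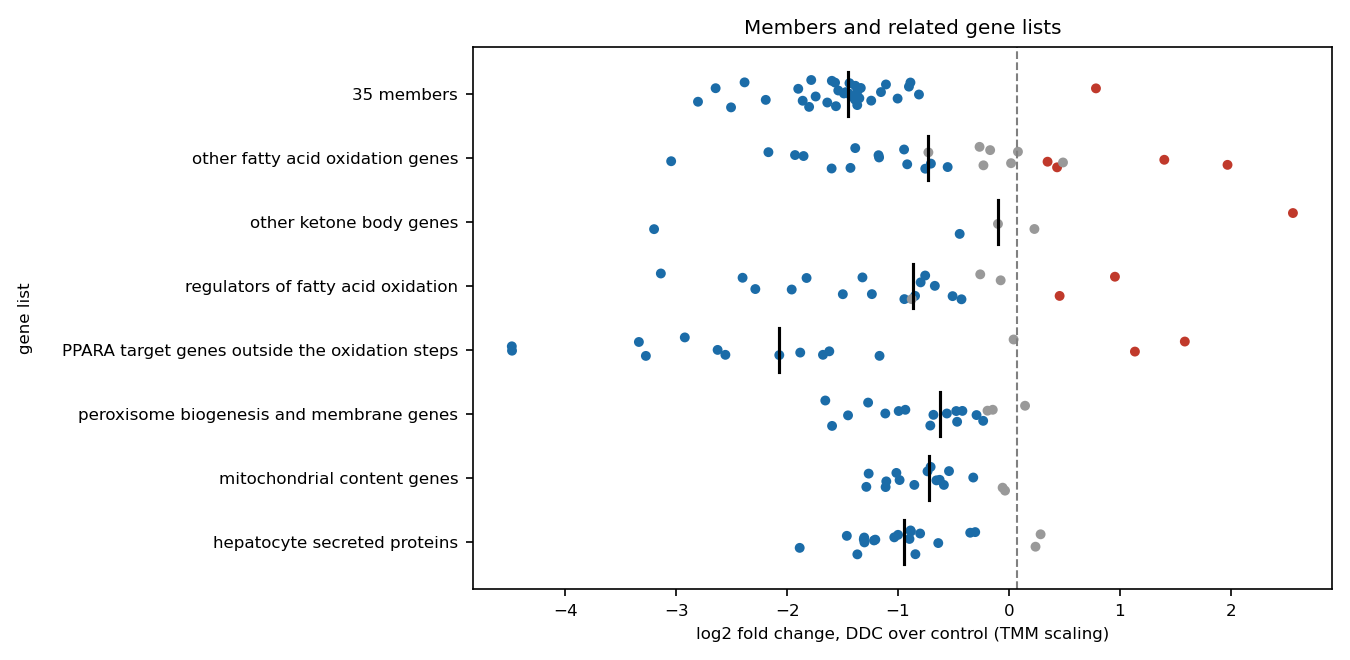
Log2 fold change (horizontal axis) of every tested gene in each list (rows), with blue for called lower, red for called higher and grey for not called. Black bars are list medians, from -2.07 for the PPARα targets and -1.45 for the 35 genes to -0.099 for other ketone body genes, and the dashed line is the median of all genes tested, 0.073.

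With TMM scaling, genes of the organelles themselves fell less, and whether they fell at all depended on the scaling. Of 18 peroxisome biogenesis and membrane genes, 15 fell and 0 rose with TMM scaling, with a median log2 fold change of -0.62. With that scaling 26.6% of all genes tested were called lower and 30.2% higher. Scaled by library totals, 7 fell and 6 rose, with a median of 0.002, where 8.96% of all genes tested were called lower and 58.9% higher. With the secreted protein scaling 4 fell and 9 rose, with a median of 0.23, where 5.88% were called lower and 66.6% higher. Pex6, an ATPase of the import machinery, fell 3.15-fold from 96.4 ± 4.30 to 30.6 ± 0.813 CPM, and Cat, peroxisomal catalase, fell 3.02-fold from 2470 ± 24.8 to 818 ± 82.3 CPM. Pxmp4 and Pxmp2, membrane proteins of the peroxisome, fell 2.73-fold and 2.41-fold. Of 16 genes of general mitochondrial content, 14 fell and 0 rose with TMM scaling, with a median of -0.72. Scaled by library totals 6 fell and 3 rose, with a median of -0.097. With the secreted protein scaling 3 fell and 6 rose, with a median of 0.13. Hspd1, the matrix chaperonin, fell 2.44-fold, Sdha, the flavoprotein of succinate dehydrogenase, 2.40-fold, Hspe1, the cochaperonin, 2.16-fold, and Atp5b, the β subunit of ATP synthase, 2.15-fold. Whether the oxidation genes fell more than the organelle genes was described by these medians and not tested.

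The promoter windows of the genes were searched for letters that nuclear receptors bind and for other short sequences. Of the 35 genes, 30 had a window in RefSeq's table. Counts of the 30 are by gene, and percentages of all windows are by window, of which a gene may have several. On both strands, AGGTCA repeated directly with 1 free base between the copies, the kind of element that PPARα binds with its partner RXR, occurred in 0 of the 30 and in 0.0396% of all windows. With AGGNCA in place of AGGTCA, the repeat occurred in 0 of the 30 and in 0.381% of all windows. The E-box CACGTG (7.15% of all windows) and the estrogen-related receptor letters TCAAGGTCA (0.423%) also occurred in 0 of the 30. The HNF4 site letters, shown above for Abcd3, occurred in 1 of the 30 and in 0.475% of all windows. The repeats and the estrogen-related receptor letters are rare in all windows. Their absence from the 30 thus cannot tell these genes from others. The windows are short, and counts of 0 say only that the letters are not in them. GC boxes, GGGCGG, occurred in 23 of the 30 and in 35.7% of all windows, and CCAAT in 14 of the 30 and in 37.4%. Counted by gene, as the 30 are, GC boxes occurred in 38.2% of all genes with a window and CCAAT in 41.1%. For CCAAT the 30 genes, at 46.7%, were thus close to that share. These last searches were added after seeing the data. Fabp1, outside the 35 genes, held the looser repeat 67 bases before its start, and it is shown, at chr6:71199804-71199832 on the plus strand, as an example of the letters the windows lacked, in capitals as read on the other strand.
Fabp1 site: acaatcacTGACCTATGGCCTatatctga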

How the data were processed

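Bulk liver RNA from 8 mice, 4 per diet, was sequenced. The libraries were made from polyadenylated RNA with dUTP in the second strand and read as pairs, per the labels' protocols. The authors deposited raw counts per gene, with no normalization, and FPKM values, which they scaled by length and depth. The submitters' processing notes name FastQC, cutadapt, StringTie, HISAT2 and DESeq2, without versions, and the builds GRCm38 and mm10. For strand in counting, nothing is stated in the sources used here.

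The 35 genes, the related lists and the pairs were chosen with earlier results of these data known. Counts of all 8 libraries were fitted with edgeR 4.0.16 in R 4.3.3 (TMM scaling, filterByExpr, robust quasi-likelihood), with no covariate, and the fit was tested on simulated data. Standard errors are the log2 fold change divided by the square root of F. Alternatives were other scalings, filters, DESeq2 1.42.0, voom and log2 FPKM with pseudocounts of 0.1 and 1 in limma 3.58.1, a test against a fold of 1.5, each library left out, a replicate block and, added after seeing the data, a heart muscle covariate. Ratios of counts were tested by exact two-sided permutation over 70 assignments. Named genes outside the 35 were, per list, up to 4 called genes at 1 CPM or more with the largest change plus the largest called against the majority, with Ppara, Hnf4a and Alb always. From cell type lists the rule takes the most abundant gene and the largest called change, and the text gives list totals. Others were named after their values were seen. Results for 3 genes of the related lists are not reported here, and the counts of those lists leave them out. The labels call the libraries biological replicates. Shared stretches were read from GENCODE vM21 transcripts.

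Sequences are RefSeq's, build GRCm38.p6. Depth, 61179103 to 81664058 counts, limits counting error only.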

Additional observations from a re-analysis of the deposited data

Results flagged for a closer look

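In each group of 4 libraries, the highest and lowest were compared with the rest by Dixon's ratio. Of 124 gene and group combinations tested, 11 held a library that stood apart, and 7 of these were among 70 combinations of the 35 genes. Chance flags about 1 in 20 groups.

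DDC 1 stood apart as the highest DDC library in 6 of the 11. Acadl was at 130 CPM there against 86.5 to 92.9 in the others, Eci2 at 91.1 against 76.5 to 77.9, and Amacr at 73.2 against 54.1 to 56.2. Ppargc1a was at 28.0 CPM against 6.22 to 6.77, Acot1 at 8.10 against 3.78 to 4.16, and Pparg at 21.1 against 18.5 to 18.7. DDC 1 is also the library with the high heart muscle transcripts, and the part of these in each value was not tested.

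DDC 2 was the highest DDC library for Bdh1, at 86.9 CPM against 73.2 to 75.4, and for Ppara, at 26.3 against 21.3 to 21.8. Control 4 was the highest control for Acadm, at 433 CPM against 363 to 373, and for Crot, at 367 against 258 to 272. Control 2 was the lowest control for Decr2, at 168 CPM against 197 to 202.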

How the results depend on the processing

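Over 22 alternatives, the 35 genes gave 770 values, of which 760 kept their direction and their side of the threshold, 9 lost the call and 1, Echs1, reversed. Acsl5 lost it with library totals alone, the secreted protein scaling, all 3 FPKM settings and the test against a fold of 1.5 (adjusted p = 0.0654). The others were Acox2 with the fold of 1.5, which left 0 genes called higher, and Amacr and Crot with the secreted protein scaling. Each single library left out gave 34 lower and 1 higher. Of all genes tested, 5205 were lower and 5893 higher. Library totals alone gave 1750 and 11505, the secreted protein scaling 1149 and 13015, log2 FPKM with a pseudocount of 0.1 gave 1826 and 11976, with 1 gave 1815 and 11987, and with low FPKM left out 1680 and 9374. The test against a fold of 1.5 gave 2120 and 3316, and the heart muscle covariate 3925 higher. Leaving out single libraries gave 4593 to 5532 lower and 5039 to 6228 higher. The share of calls that were higher was 53.1% with TMM, 86.8% with library totals and 91.9% with the secreted protein scaling. Among the 35 genes and those chosen by the naming rule, reversed values were Echs1 0.039 with the secreted protein scaling, and Slc16a7 with library totals (0.18), that scaling (0.41) and FPKM (0.19, 0.17 and 0.19). The cause was not tested. Myh6 was at 0.057 with the heart muscle covariate, which contains Myh6 and so sets its value near 0. Cpt1b, not called, was at 0.098 with the secreted protein scaling and 0.10 with the covariate. Of the 81 genes of the related lists that passed the test, 13 changed sign with library totals, as many with FPKM, and 25 with the secreted protein scaling. Slc16a7 also lost its call without control 1 or 3 or DDC 3 or 4. Among pairs, single omissions moved the log2 difference of Etfa/Etfb from -0.046 to 0.037, Etfdh/Etfa from -0.14 to 0.024, Cpt1a/Cpt2 from -0.13 to 0.031 and Ehhadh/Hsd17b4 from -0.095 to 0.13. The labels do not state that replicate numbers pair the animals. Deviations of same-numbered libraries from their group means correlated at -0.21, -0.18, 0.029 and -0.047, and these 4 values cannot exclude a pairing. With the replicate block, 4654 genes were lower and 4810 higher, the 35 genes gave 34 and 1, and 0 pair ratios were called.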
